A study of Mus musculus with 40 samples.

Results

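Neurotrophins are secreted growth factors that bind receptors on neurons. The 6 genes described here are 2 of their ligands, Bdnf and Ntf3, and 4 of their receptors, Ntrk2, Ntrk3, Ngfr and Sort1. They were chosen by symbol out of the 41388 Ensembl genes in the counts of 40 RNA-seq libraries. Each symbol matched 1 Ensembl gene, and all 6 genes passed the limit on low counts in every comparison.

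The libraries came from mice at postnatal day 21 that carry a Cre-dependent TRAP reporter, EGFP/Rpl10a, a tagged ribosomal protein, in the Rosa26 locus. RBP4-TRAP mice also carry the Tg(RBP4-cre)KL100Gsat/Mmcd transgene, which drives the tag in layer 5 pyramidal neurons, and VGAT-TRAP mice carry Cre in the Slc32a1 gene, which drives it in all GABAergic neurons. Each line had 5 replicates, each a pool of 2 to 3 forebrains of both sexes (the labels call the tissue cortex), and the labels name no treatment. From every pool 4 fractions were taken. The whole-cell homogenate (WCH) held RNA of all cells, and TRAP (translating ribosome affinity purification) held RNA on tagged ribosomes of the homogenate. The synaptoneurosome fraction (SNF) held RNA of pinched-off synaptic endings with attached material, and SynapTRAP (ST) was TRAP performed on the SNF. No group was free of Cre or of the reporter, and WCH and SNF libraries served as the untagged input of TRAP and ST. The design asks which mRNAs are on ribosomes of each neuron type, and which of these are near synapses.

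After genes of the mitochondrial chromosome, rRNA and tRNA were left out, libraries held between 8950847 and 21976631 counts. Levels are given in cpm, the count divided by this total and scaled like CPM, as mean ± SD over the 5 pools of a group, and 1 count equals between 0.0455 and 0.112 cpm. Slc17a7, the vesicular glutamate transporter of cortical pyramidal neurons, had 552 ± 87.5 cpm in the RBP4 TRAP libraries and 58.5 ± 55.0 cpm in those of VGAT TRAP, and Slc32a1, the vesicular GABA transporter, had 2.88 ± 1.396 cpm and 58.4 ± 11.6 cpm. Each marker was thus higher in the line that its label names. Between the TRAP groups 4 of 4 excitatory neuron markers were called higher in RBP4. So were 3 of 4 layer 5 markers, with 1 lower, and 9 of 9 GABAergic neuron markers were lower. Between the ST groups 0 of 4 excitatory and 0 of 4 layer 5 markers were called, and 3 of 9 GABAergic markers were lower in RBP4. In RBP4 ST replicate 4 stood apart in Slc32a1 alone, with 49.9 cpm in a group with a mean of 22.3 ± 15.8 cpm. Its sum over the 9 GABAergic neuron markers, Slc32a1 among them, was 731 cpm, inside the range of its group (613 to 1401 cpm). Results that rest on RBP4 ST are also given without this library where a call changes. SNF replicate 3 of both lines had the largest mitochondrial shares, 40.2% and 41.9% of all counts, against medians of 16.3% and 18.1% in SNF. In SNF and ST of both lines replicate 3 also had the largest sum of 7 astrocyte markers. In the RBP4 and VGAT lines this was 25352 and 24839 cpm in SNF, and 20695 and 18081 cpm in ST. The part of this in its values of the 6 genes was not tested. The paper states that its dissection likely took in some dorsal striatum. In VGAT TRAP 6 markers of striatal projection neurons (Drd1, Drd2, Adora2a, Ppp1r1b, Tac1 and Penk) summed to a mean of 4067 cpm, against 184 cpm in RBP4 TRAP. All 6 were called lower in RBP4 TRAP. The part of striatal neurons in the line differences in TRAP was not tested. In bulk samples such as these, fewer cells of a type and less RNA per cell cannot be told apart.

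BDNF (brain-derived neurotrophic factor) acts mainly through TrkB, the product of Ntrk2, and neurotrophin-3 (Ntf3) mainly through TrkC, the product of Ntrk3. These tyrosine kinase receptors signal to the MAP kinase, PI3 kinase and phospholipase C pathways, and both genes also make shorter receptors without the kinase domain. The p75 receptor (Ngfr) binds all neurotrophins, and their precursor forms most tightly together with sortilin (Sort1), which also sorts proteins between the Golgi apparatus, endosomes and the cell surface. In the cortex BDNF is known as a product of excitatory neurons that shapes synapses and inhibitory circuits, and its mRNA is a standard example of an mRNA found in dendrites.

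Synaptoneurosomes held more Ntrk2, Ntrk3 and Sort1 mRNA than the homogenate in both lines, while TRAP held less Ntrk2 and Ntrk3 mRNA. Of the 6 genes, Ntrk2, Ntrk3 and Sort1 rose in SNF against WCH in the RBP4 line and all 6 rose in the VGAT line. Counts were tested with edgeR's quasi-likelihood test on group means, with Benjamini-Hochberg adjustment over all genes tested and an adjusted p of at most 0.05 as the threshold. At this threshold 13.4% of all 17043 genes tested were higher in RBP4 SNF and 36.1% lower, together 49.6%, and in the VGAT line 19.3% of 16990 genes were higher and 45.2% lower, together 64.5%. With library totals as the scale the median log2 fold change over all genes was -0.50 for RBP4 and -0.52 for VGAT. The 6 genes lay between 0.83 and 1.89 and between 1.25 and 2.15 relative to these medians. With TMM scaling both medians were -0.17, and the genes called higher and lower numbered 3284 and 3048 instead of 2286 and 6161 in RBP4 SNF, and 4187 and 4747 instead of 3283 and 7680 in VGAT SNF.

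In TRAP against WCH 3 of the 6 genes fell in the RBP4 line (Ntrk2, Ntrk3 and Ngfr) and 4 in the VGAT line (Bdnf, Ntrk2, Ntrk3 and Sort1), and 0 rose. Of all genes, 31.5% fell and 8.37% rose in RBP4 TRAP, together 39.9%, and 41.8% fell and 21% rose in VGAT TRAP, together 62.8%. The medians over all genes were -0.34 and -0.31. TMM moved the numbers of genes higher and lower from 1427 and 5372 to 3296 and 3815 in RBP4 TRAP and from 3561 and 7106 to 4987 and 5530 in VGAT TRAP. In ST against SNF 3 of 6 fell in the RBP4 line (Ntrk2, Ntrk3 and Sort1), where 5.46% of all genes fell and 5.64% rose, together 11.1%. In the VGAT line 5 of 6 fell (all except Ngfr), where 11.2% of all genes fell and 16.3% rose, together 27.5%. With no genes left out of the library sizes, 1757 genes were higher and 317 lower instead of 962 and 931 in RBP4 ST, and 4726 and 917 instead of 2771 and 1905 in VGAT ST, where TMM gave 1987 and 2480. In ST against TRAP 4 of 6 were higher in each line, Ntrk2, Ntrk3 and Sort1 in both, Ngfr in the RBP4 line and Bdnf in the VGAT line. Here 26% of all genes were higher and 29.1% lower in the RBP4 line, together 55.1%, and 37.5% and 34% in the VGAT line, together 71.5%.

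Between the lines the members differed in TRAP. Bdnf, Ntf3 and Sort1 were higher in RBP4 TRAP than in VGAT TRAP and Ngfr was lower, beside 12.9% of 16898 genes that were higher and 15.1% that were lower, together 28%. In WCH, SNF and ST edgeR called 0 of the 6 genes. Of all genes it called 0.0118% in WCH (0.00592% in each direction), 0.0169% in SNF (0.00564% higher and 0.0113% lower) and 0.325% in ST (0.0592% higher and 0.266% lower). At an unadjusted p under 0.05 the members numbered 1 in WCH and 1 in ST, Ntf3 in both, and 0 in SNF, and DESeq2 called 0 members in all 3 fractions.

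**Figure D1:**
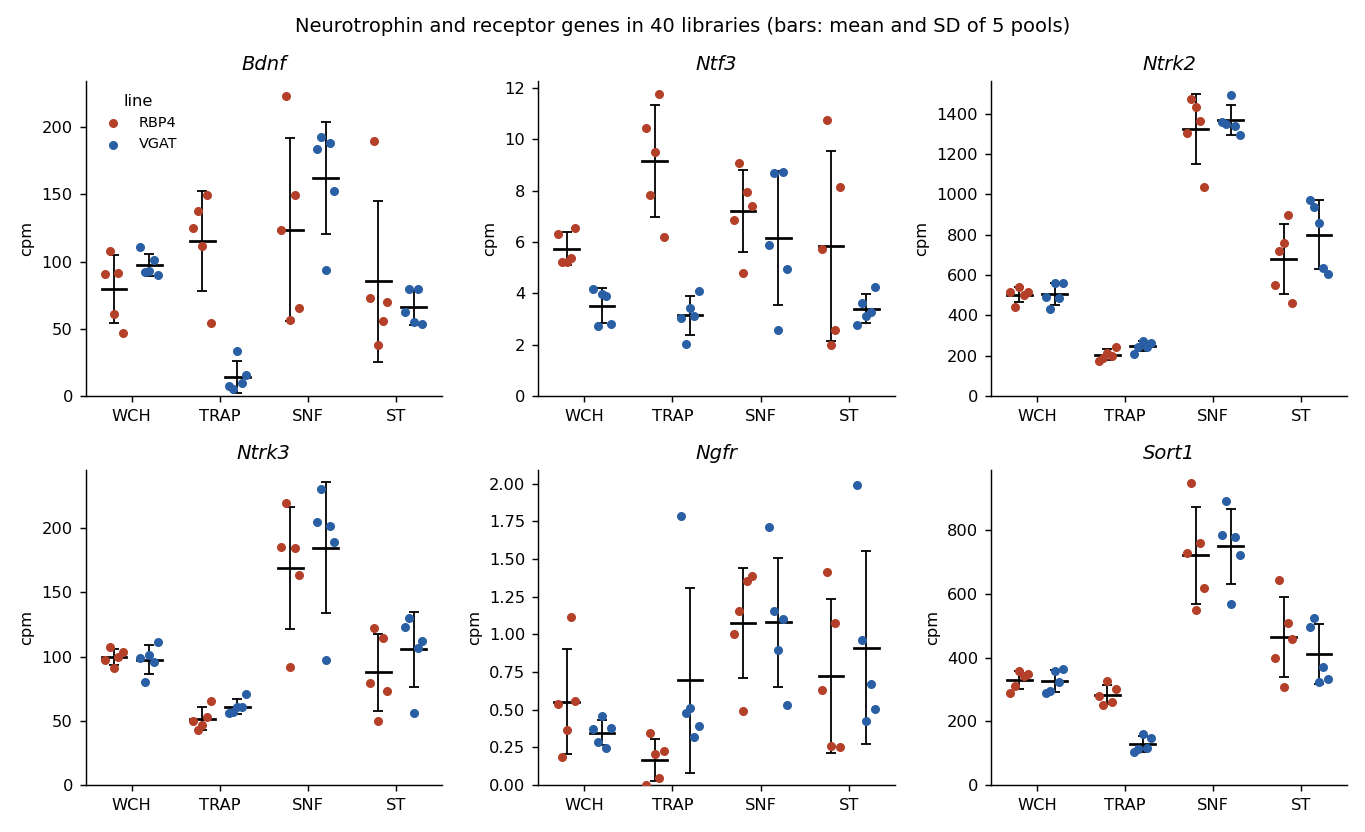
Levels in cpm (vertical axis, linear, from 0) of the 6 genes in WCH, TRAP, SNF and ST of the RBP4 (red) and VGAT (blue) lines. Each point is 1 pool and the bars give the mean and SD of 5 pools. Bdnf is lowest in VGAT TRAP, at 14.3 cpm, and Ntrk2 is lowest in TRAP and highest in SNF in both lines.

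**Figure D2:**
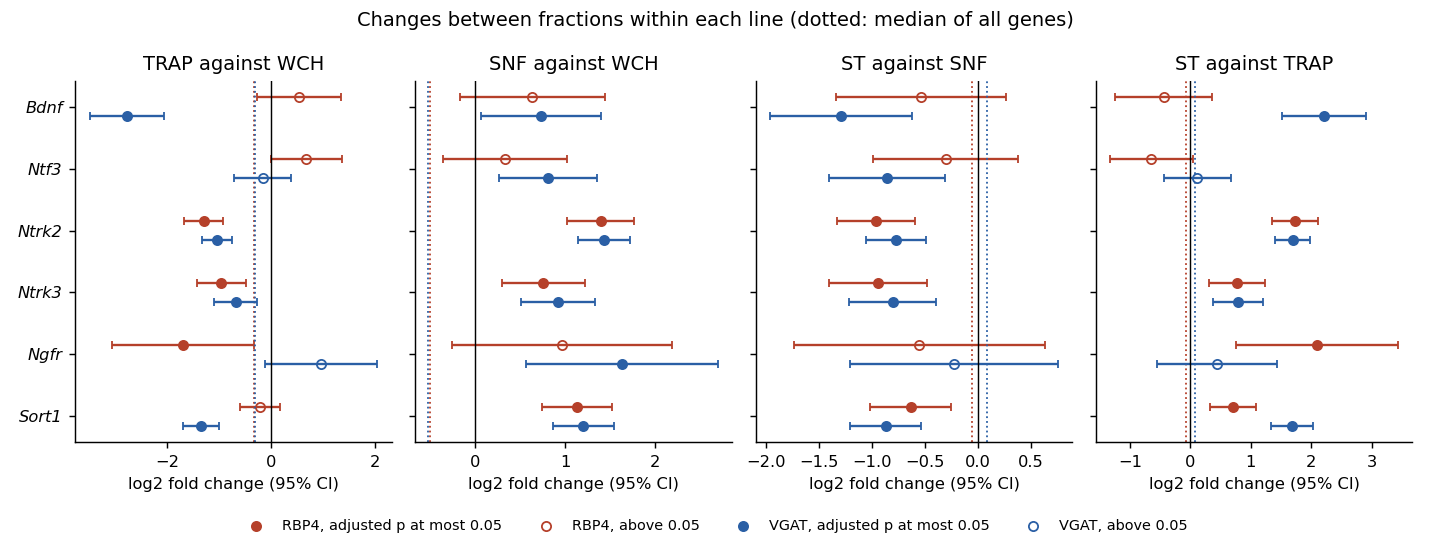
Log2 fold changes with 95% confidence intervals (horizontal axis) of the 6 genes in 4 comparisons within the RBP4 (red) and VGAT (blue) lines. Filled points passed an adjusted p of 0.05 and dotted lines mark the median of all genes. Ntrk2, Ntrk3 and Sort1 lie right of 0 in SNF against WCH and in ST against TRAP in both lines, and left of 0 in ST against SNF.

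Bdnf (ENSMUSG00000048482, plus strand of chr2:109674700-109727007 in GRCm38, GENCODE M21) encodes the ligand of TrkB. In the homogenate it had 90.9, 108, 60.8, 91.7 and 46.7 cpm in the RBP4 pools 1 to 5 and 111, 92.5, 93.0, 101 and 90.3 cpm in the VGAT pools. On ribosomes of the homogenate RBP4 TRAP held 125, 138, 111, 149 and 54.3 cpm, whereas VGAT TRAP held 7.27, 5.29, 33.9, 9.46 and 15.6 cpm. The 5 VGAT TRAP libraries were thus below every other library of the series, and the 2 TRAP groups did not overlap.

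RBP4 TRAP exceeded VGAT TRAP 8.09-fold (log2 fold change 3.02 ± 0.41 SE, edgeR adjusted p = 7.64e-07). Against its homogenate, Bdnf fell 6.83-fold in VGAT TRAP (-2.77 ± 0.34 SE, edgeR adjusted p = 7.53e-07), with 5 of 5 pools lower and no overlap. In RBP4 TRAP its log2 fold change was 0.54 ± 0.39 SE, edgeR adjusted p = 0.276, above the homogenate in 5 of 5 pools but short of the threshold. The difference between the lines in TRAP less WCH was 3.31 ± 0.54 SE, edgeR adjusted p = 4.51e-05. Over all genes 12.6% differed between the lines in this way, 5.63% upward and 6.97% downward, and of the members Sort1 and Ngfr also did.

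Beside these values stand those of excitatory neuron markers. The 4 markers used (Slc17a7, Neurod6, Tbr1 and Neurod2) summed to 41.3, 41.6, 266, 64.1 and 87.8 cpm in VGAT TRAP pools 1 to 5, so the library with the most Bdnf was the library with the most of these markers. All 4 were higher in RBP4 TRAP than in VGAT TRAP, with a median log2 fold change of 3.16, and none was at 3 counts or fewer in any group. The lowest RBP4 TRAP library for Bdnf, replicate 5, was also lowest for the markers (687 cpm, others 926 to 1051 cpm) and highest for oligodendrocyte markers (5391 cpm, others 371 to 903 cpm). The part of other cells' RNA in these values was not tested.

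**Figure D3:**
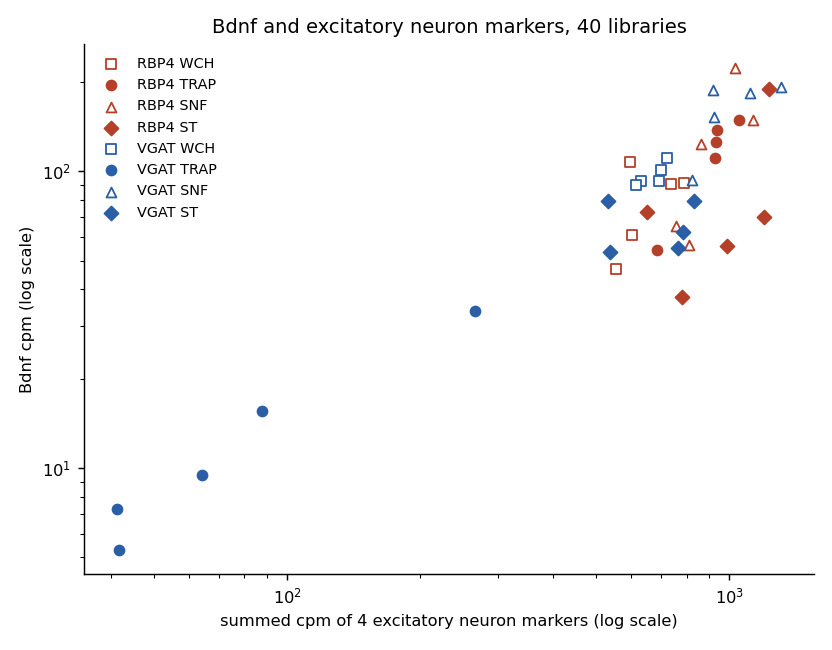
Bdnf (vertical axis, cpm, log scale) against the summed cpm of 4 excitatory neuron markers (horizontal axis, log scale) in 40 libraries. Symbols give the fraction and colours the line. The 5 VGAT TRAP libraries are at the lower left, from 41.3 to 266 cpm of the markers and from 5.29 to 33.9 cpm of Bdnf.

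In synaptoneurosomes Bdnf had 123, 223, 56.5, 149 and 65.2 cpm in the RBP4 pools and 184, 192, 93.4, 188 and 152 cpm in the VGAT pools, and replicate 3 was the lowest of SNF in both lines. On synaptoneurosome ribosomes it had 72.7, 189.7, 37.7, 55.8 and 70.3 cpm in RBP4 ST and 62.2, 79.7, 55.3, 79.5 and 53.4 cpm in VGAT ST. RBP4 ST replicate 2 lay far above the other 4 libraries of its group, and VGAT ST lay inside the range of RBP4 ST. The difference between the lines that TRAP showed was thus not detected in ST, where it was 0.37 ± 0.37 SE, edgeR adjusted p = 0.749 (95% interval -0.39 to 1.13). Without pool 2 of the RBP4 line it was -0.16. The excitatory neuron markers, too, were not told apart between the lines in ST, where 0 of 4 were called (median 0.24).

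Within the VGAT line Bdnf was 4.63-fold higher in ST than in TRAP (2.21 ± 0.34 SE, edgeR adjusted p = 5.06e-06), higher in 5 of 5 pools with no overlap. In RBP4 pools this comparison gave -0.44 ± 0.39 SE, edgeR adjusted p = 0.35, and without pool 2 it gave -0.90 with an edgeR adjusted p of 0.0356. The difference between the lines in ST less TRAP was -2.65 ± 0.54 SE, edgeR adjusted p = 0.000965, beside 5.02% of all genes upward and 5.79% downward, together 10.8%, and Sort1 was the other member that passed. Excitatory markers moved likewise in VGAT ST, where 3 of 4 were higher than in TRAP (median 2.08) and the sums were 784, 829.6, 766, 532 and 537 cpm. In RBP4 ST against TRAP 1 of 4 was higher and 2 lower (median -0.61). From WCH to SNF the 4 markers went different ways. There 1 was higher and 2 lower in the VGAT line (median -0.93), and 1 and 3 in the RBP4 line (median -0.97). Their mean sum rose from 673 to 1018 cpm in the VGAT line and from 656 to 918 cpm in the RBP4 line. The part of excitatory neuron RNA in the ST values was not tested. Bdnf fell from SNF to ST in the VGAT line (-1.29 ± 0.32 SE, edgeR adjusted p = 0.00419) and rose from WCH to SNF (0.73 ± 0.32 SE, edgeR adjusted p = 0.0488), but without pool 1, 2, 4 or 5 the latter had edgeR adjusted p-values from 0.0917 to 0.131, with the pool as a block 0.0508, and with all 40 libraries in one fit 0.0959. With no genes left out of the library sizes it was 0.49, with an edgeR adjusted p of 0.206. In the RBP4 line the values were -0.53 ± 0.39 SE, edgeR adjusted p = 0.415 and 0.63 ± 0.39 SE, edgeR adjusted p = 0.177.

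Ntf3 (ENSMUSG00000049107, minus strand of chr6:126101413-126166744) encodes neurotrophin-3 and was the scarcer ligand. The homogenates held 6.34, 5.23, 5.23, 5.37 and 6.54 cpm in the RBP4 line and 4.19, 2.74, 3.99, 3.91 and 2.83 cpm in the VGAT line. These groups did not overlap, yet the log2 fold change of 0.70 ± 0.30 SE was far from the threshold over all genes, with an edgeR adjusted p of 1. TRAP held 10.4, 7.82, 9.50, 11.8 and 6.22 cpm in the RBP4 line and 3.06, 2.02, 3.44, 3.12 and 4.08 cpm in the VGAT line, again with no overlap.

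In TRAP Ntf3 was 2.90-fold higher in the RBP4 line (1.54 ± 0.30 SE, edgeR adjusted p = 0.000237). Relative to the homogenates the TRAP change did not pass the test in either line, 0.67 ± 0.33 SE, edgeR adjusted p = 0.108 for RBP4 and -0.16 ± 0.27 SE, edgeR adjusted p = 0.606 for VGAT. The RBP4 value passed with TMM scaling (0.97) and with DESeq2 (DESeq2 adjusted p = 0.0116), and the VGAT value turned to 0.09. The difference between the lines in TRAP less WCH, 0.84 ± 0.43 SE, edgeR adjusted p = 0.241, did not pass, and the homogenates of the lines, too, had no overlapping values.

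Synaptoneurosomes held 6.84, 9.08, 4.79, 7.96 and 7.42 cpm in the RBP4 line and 5.90, 8.69, 2.57, 8.71 and 4.94 cpm in the VGAT line. ST held 5.75, 10.8, 2.003, 2.58 and 8.14 cpm and 2.77, 3.63, 3.13, 3.27 and 4.26 cpm. RBP4 ST spread over a wider range than any other group, and covered the whole VGAT ST group. In the VGAT line Ntf3 rose from WCH to SNF (0.81 ± 0.26 SE, edgeR adjusted p = 0.00991) and fell from SNF to ST (-0.86 ± 0.26 SE, edgeR adjusted p = 0.0175). The first call was lost without pool 2 or 4 (edgeR adjusted p = 0.0914 and 0.0621) and the second without pool 1, 2 or 4 (0.0827, 0.0869 and 0.126), and both were lost with no genes left out of the library sizes (0.58, edgeR adjusted p = 0.0878, and -0.67, 0.0926). In the RBP4 line the same comparisons gave 0.33 ± 0.33 SE and -0.30 ± 0.33 SE, with adjusted p = 0.41 and 0.618 in edgeR. ST against TRAP gave -0.64 ± 0.33 SE, edgeR adjusted p = 0.102 for RBP4 and 0.11 ± 0.27 SE, edgeR adjusted p = 0.71 for VGAT, and the line difference in ST was 0.78 ± 0.30 SE, edgeR adjusted p = 0.319. The RBP4 value passed without pool 2 (-1.04, edgeR adjusted p = 0.0209), without pool 5 (-0.89, 0.0403) and with the pool as a block (-0.78, 0.0454).

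Ntrk2 (ENSMUSG00000055254, plus strand of chr13:58806596-59133970) encodes TrkB, the receptor of BDNF. The counts are per gene and do not separate TrkB with its kinase domain from the truncated TrkB that lacks it.

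Ntrk2 was ordered by fraction in the same way in both lines. SNF held 1304, 1473, 1434, 1365 and 1035 cpm in the RBP4 pools and 1357, 1351, 1492, 1339 and 1295 cpm in the VGAT pools. ST held 549, 719, 761, 900.1 and 462 cpm and 971, 935, 858, 633 and 608 cpm. WCH held 518, 442, 539, 501 and 517 cpm and 491, 431, 562, 485 and 562 cpm.

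TRAP held least of the 4 fractions, with 175, 187, 216, 200.3 and 245 cpm in the RBP4 line and 209, 246, 274, 244 and 264 cpm in the VGAT line. All 10 SNF libraries lay above all other libraries, and all 10 TRAP libraries lay below all others. In TRAP Ntrk2 fell 2.46-fold against the homogenate in the RBP4 line (-1.30 ± 0.18 SE, edgeR adjusted p = 1.28e-05) and 2.05-fold in the VGAT line (-1.03 ± 0.14 SE, edgeR adjusted p = 1.97e-06). In SNF it rose 2.63-fold (1.39 ± 0.18 SE, edgeR adjusted p = 6.89e-05) and 2.70-fold (1.43 ± 0.14 SE, edgeR adjusted p = 9.75e-08). From SNF to ST it fell by 0.96 ± 0.18 and 0.77 ± 0.14 on the log2 scale, with edgeR adjusted p = 0.00108 and 0.000179. ST nevertheless held 3.31-fold and 3.24-fold more than TRAP (1.73 ± 0.18 SE, edgeR adjusted p = 1.84e-07, and 1.69 ± 0.14 SE, edgeR adjusted p = 9e-10). Each of these 8 changes had 5 of 5 pools in 1 direction.

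The lines did not differ detectably in Ntrk2 in any fraction. The log2 fold change of RBP4 over VGAT was -0.01 in WCH (95% interval -0.34 to 0.32), -0.27 in TRAP (-0.60 to 0.05), -0.05 in SNF (-0.35 to 0.26) and -0.24 in ST (-0.57 to 0.09). Astrocytes are known to make mostly truncated TrkB, and 7 astrocyte markers (Aqp4, Gfap, Slc1a2, Slc1a3, Aldh1l1, Gja1 and Gjb6) also had their lowest sums in TRAP and their highest in SNF or ST. They summed to means of 4054 and 3399 cpm in the RBP4 and VGAT homogenates, 800 and 455 cpm in TRAP, 13912 and 13307 cpm in SNF, and 10865 and 11126 cpm in ST. In ST against TRAP 7 of 7 were higher in both lines, with medians of 3.33 and 3.70, and in SNF against WCH 6 of 7 and 7 of 7 were higher. None of the 7 was at 3 counts or fewer over a whole group. The likeness was not particular to astrocytes. In RBP4 WCH, TRAP, SNF and ST 5 microglia markers summed to means of 134, 13.1, 307 and 151 cpm. For 2 oligodendrocyte precursor markers these were 59.0, 9.93, 135 and 94.2 cpm. The part of RNA of these glia in the Ntrk2 values was not tested.

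Ntrk3 (ENSMUSG00000059146, minus strand of chr7:78192362-78578408) encodes TrkC, the receptor of neurotrophin-3, and also has a kinase and a truncated form. Ntrk3-201 (825 residues) and Ntrk3-202 (612 residues) share 528 residues, up to chr7 position 78356027, and then use other exons that start at 78260414 and 78304426. The 30 bases across that junction (GENCODE M21, minus strand) are printed below, 5′ to 3′, to show where the forms part, with the shared exon in lower case and the first 15 bases of each transcript's own exon in capitals.
Ntrk3-201: acaagccagacacatATGTTCAGCACATCA
Ntrk3-202: acaagccagacacatGGGTCTTTTCAAACA
Of the unshared bases only 1516 of 17919 and 560 of 2193 lie in the exons over which the authors counted. Their Ntrk3 exons span 5241 bases, against 30170 in GENCODE M21, so reads from most of its annotated exon bases were not counted for this gene.

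Ntrk3 had 97.6, 107, 90.8, 100.03 and 104 cpm in RBP4 WCH and 98.5, 80.3, 102, 95.8 and 112 cpm in VGAT WCH. TRAP held 49.8, 42.4, 47.0, 53.2 and 65.6 cpm and 55.7, 56.8, 61.0, 60.4 and 70.8 cpm, below the homogenates with no overlap in either line. It fell there by 0.95 ± 0.22 on the log2 scale for RBP4 (edgeR adjusted p = 0.00198) and for VGAT by 0.68 ± 0.20 (edgeR adjusted p = 0.00573). With TMM the VGAT value was -0.42 with an adjusted p of 0.0561 in edgeR.

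In SNF Ntrk3 had 186, 220.0, 92.0, 184 and 163 cpm in the RBP4 line and 205, 231, 97.4, 202 and 189 cpm in the VGAT line. In ST it had 79.4, 122, 49.8, 115 and 72.9 cpm and 123, 130.4, 56.0, 106 and 112 cpm. Replicate 3 was the lowest SNF and the lowest ST library in both lines, and in SNF it was at the level of the homogenate. Ntrk3 rose from WCH to SNF (0.76 ± 0.22 SE, edgeR adjusted p = 0.00785 in the RBP4 line, and 0.92 ± 0.20 SE, edgeR adjusted p = 0.00039 in the VGAT line), and with no genes left out of the library sizes the RBP4 value was 0.57 with an edgeR adjusted p of 0.0737. It fell from SNF to ST in 5 of 5 pools of each line (-0.95 ± 0.22 SE, edgeR adjusted p = 0.00759, and -0.81 ± 0.20 SE, edgeR adjusted p = 0.00394), and without pool 1 the RBP4 value had an edgeR adjusted p of 0.0815. With no genes left out both calls were lost (-0.74, edgeR adjusted p = 0.0722, for RBP4, and -0.59, 0.0737, for VGAT). ST exceeded TRAP in both lines (0.77 ± 0.22 SE, edgeR adjusted p = 0.0058, and 0.79 ± 0.20 SE, edgeR adjusted p = 0.0013), and without pool 2 the RBP4 value was 0.56 with an edgeR adjusted p of 0.0644. Between the lines the log2 fold change of RBP4 over VGAT lay between -0.27 (ST, 95% interval -0.66 to 0.12) and 0.03 (WCH, -0.36 to 0.43).

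Ngfr (ENSMUSG00000000120, minus strand of chr11:95568818-95587735) encodes the p75 receptor and was near the floor. Its counts were between 0 and 36 in a library, so its values carry a large counting error. WCH held 0.539, 0.187, 0.365, 1.11 and 0.555 cpm in the RBP4 line and 0.37, 0.285, 0.458, 0.244 and 0.381 cpm in the VGAT line, and SNF held 0.9995, 1.16, 0.489, 1.35 and 1.39 cpm and 1.71, 1.16, 0.894, 1.10 and 0.532 cpm. TRAP held 0, 0.347, 0.208, 0.0455 and 0.224 cpm in the RBP4 line, 16 counts in all, and 1.79, 0.475, 0.51, 0.317 and 0.389 cpm in the VGAT line, 58 counts in all. ST held 0.633, 1.41, 0.258, 1.08 and 0.251 cpm and 1.99, 0.963, 0.424, 0.669 and 0.506 cpm. VGAT TRAP replicate 1 stood far above the other 4 libraries of its group, and the 2 TRAP groups overlapped.

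Ngfr was lower in RBP4 TRAP than in VGAT TRAP (-2.003 ± 0.65 SE, edgeR adjusted p = 0.0202), although 1 RBP4 library lay above the lowest VGAT library. Without VGAT pool 1 this was -1.31 with an edgeR adjusted p of 0.14, and without RBP4 pool 1 or 4 the p was 0.0626 or 0.0532. It rose from WCH to SNF in the VGAT line (1.63 ± 0.51 SE, edgeR adjusted p = 0.00836) without overlap, and the RBP4 value was 0.97 ± 0.59 SE, edgeR adjusted p = 0.176. The RBP4 TRAP value against WCH, -1.68 ± 0.66 SE, edgeR adjusted p = 0.0453, was at the threshold and passed it in 6 of 14 alternatives, and without pool 4 it was -1.02 with an edgeR adjusted p of 0.3. The VGAT TRAP value was 0.97 ± 0.52 SE, edgeR adjusted p = 0.108, and it passed with TMM (1.21, 0.0488) and DESeq2. ST exceeded TRAP in the RBP4 line (2.10 ± 0.65 SE, edgeR adjusted p = 0.0084), and in the VGAT line the value was 0.44 ± 0.48 SE, edgeR adjusted p = 0.417. Without pool 4 the RBP4 value had an edgeR adjusted p of 0.0605. The difference between the lines in TRAP less WCH, -2.66 ± 0.90 SE, edgeR adjusted p = 0.0482, was kept in 4 of 19 alternatives. Without RBP4 pool 4 or VGAT pool 1 it was -1.99 or -1.98 with an edgeR adjusted p of 0.214 or 0.17, and with the pool within each line as a block it had an edgeR adjusted p of 0.0673.

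Sort1 (ENSMUSG00000068747, plus strand of chr3:108284091-108361511) encodes sortilin, and 4.352% of its counted exon bases overlap Gm12523. Reads there may have been assigned to neither gene, which can depend on the strand use in counting, and that is not given. The homogenates held 289.6, 312, 356, 341 and 347 cpm in the RBP4 line and 289, 296, 357, 323 and 363 cpm in the VGAT line. TRAP held 281, 250.4, 327, 262 and 299.7 cpm in the RBP4 line and 102, 113, 161, 116 and 147 cpm in the VGAT line. RBP4 TRAP thus overlapped its homogenate, while the 5 VGAT TRAP libraries lay below all others of the series.

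RBP4 TRAP exceeded VGAT TRAP 2.22-fold (1.15 ± 0.17 SE, edgeR adjusted p = 4.04e-06), with no overlap. In VGAT TRAP Sort1 fell 2.55-fold against its homogenate (-1.35 ± 0.16 SE, edgeR adjusted p = 5.77e-07). In RBP4 TRAP it did not change detectably (-0.21 ± 0.19 SE, edgeR adjusted p = 0.372), and the sign of that value turned with TMM (0.07) and DESeq2 (0.06). The difference between the lines in TRAP less WCH was 1.14 ± 0.24 SE, edgeR adjusted p = 0.00103.

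In SNF Sort1 had 728, 947, 548, 759 and 619 cpm in the RBP4 line and 783, 890.1, 568, 779 and 722 cpm in the VGAT line. In ST it had 398, 643, 308, 509.8 and 459 cpm and 496, 525, 324, 369.7 and 334 cpm. All SNF libraries lay above all WCH libraries, and the ST groups of the lines overlapped. Sort1 rose 2.19-fold and 2.30-fold from WCH to SNF (1.13 ± 0.19 SE, edgeR adjusted p = 0.000162, and 1.20 ± 0.16 SE, edgeR adjusted p = 2.29e-06). It fell from SNF to ST (-0.64 ± 0.19 SE, edgeR adjusted p = 0.0296 in the RBP4 line, and -0.87 ± 0.16 SE, edgeR adjusted p = 0.000287 in the VGAT line), and without pool 1, 3 or 4 the RBP4 value had an edgeR adjusted p of 0.16, 0.0536 or 0.115. The RBP4 call was also lost with no genes left out of the library sizes (-0.42, edgeR adjusted p = 0.245) and with no filter on low counts (-0.64, 0.062). ST exceeded TRAP 1.63-fold in the RBP4 line (0.71 ± 0.19 SE, edgeR adjusted p = 0.00268) and 3.21-fold in the VGAT line (1.68 ± 0.17 SE, edgeR adjusted p = 1.05e-08). The lines differed in this step by -0.97 ± 0.24 SE, edgeR adjusted p = 0.00613. In ST itself RBP4 over VGAT was 0.18 ± 0.17 SE, edgeR adjusted p = 0.727 (95% interval -0.17 to 0.52).

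**Figure D4:**
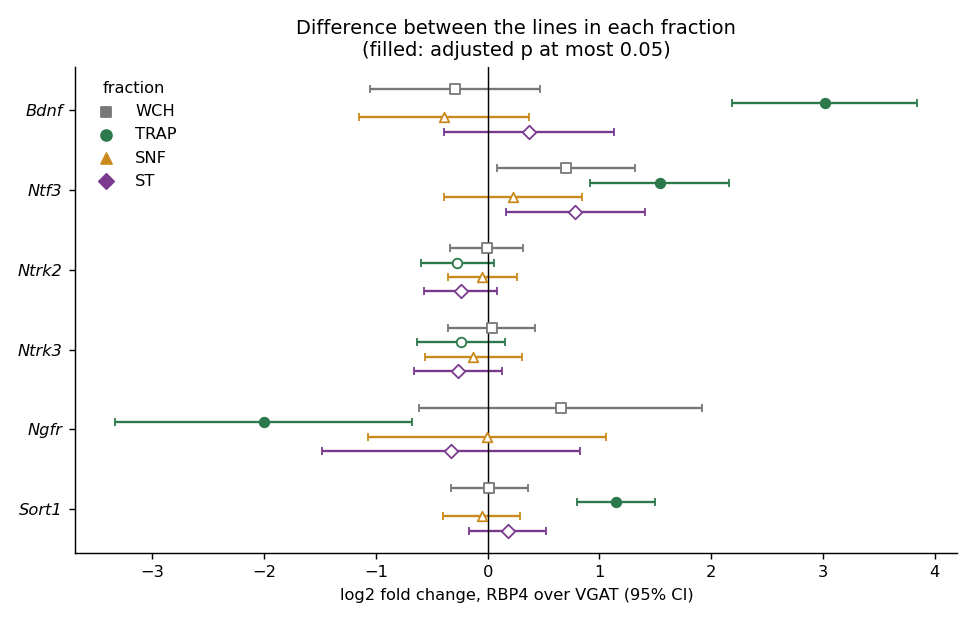
Log2 fold change of RBP4 over VGAT with 95% confidence interval (horizontal axis) for the 6 genes in WCH, TRAP, SNF and ST. Filled points passed an adjusted p of 0.05. In TRAP Bdnf, Ntf3 and Sort1 lie at 3.02, 1.54 and 1.15 and Ngfr at -2.003, and no point of WCH, SNF or ST is filled.

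The changes of the 2 lines share no library, but within a line TRAP and SNF were compared with the same WCH libraries, and ST was compared with both SNF and TRAP. The study's definition of a local translation candidate asks that ST exceed SNF and that SNF exceed WCH. Here an unadjusted p below 0.05 was asked of both comparisons, a threshold set for these counts and not taken from the study. Of the 6 genes 0 met this in either line, beside 71 of all genes (0.417%) for RBP4 and 220 (1.29%) for VGAT. The 12 values of ST against SNF were all negative, and that of Ngfr for VGAT turned to 0.02 with no genes left out of the library sizes. As somatic candidates, with SNF below WCH and TRAP above WCH, 0 of 6 genes passed the same threshold, beside 1013 (5.94%) and 2236 (13.2%) of all genes.

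Divided by the length of the counted exons, the order of the genes was much alike in all groups. Sort1 and Ntrk2 were highest in 7 of 8 groups, with 43.5 ± 3.66 and 36.4 ± 2.68 cpm per kb in RBP4 WCH and 99.0 ± 15.6 and 99.0 ± 5.39 cpm per kb in VGAT SNF, and Ngfr was lowest in all 8. In RBP4 TRAP Bdnf came after Sort1, with 18.6 ± 5.96 cpm per kb against 14.8 ± 1.98 for Ntrk2 and 9.85 ± 1.67 for Ntrk3. Without the division by length Ntrk2 was above Bdnf there, with 205 ± 27.4 cpm against 115 ± 37.0 cpm. In VGAT TRAP Bdnf had 2.30 ± 1.87 cpm per kb and Ntf3 2.20 ± 0.524. The Ntrk3 value is the least certain of these levels, since the counted exons leave out most of its annotated length. The paper also states that its libraries were primed at the 3´ end and that reads are strongly biased to it. Division by length may then not make genes comparable. The counted exons span 13806 bases in Ntrk2 and 6217 in Bdnf, so the order of these 2 genes in RBP4 TRAP is uncertain.

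Across the 40 libraries, which share fractions, pools and library totals, the log2(cpm + 1) values of Sort1 and Ntrk2 had a Pearson correlation of 0.849, those of Ntrk2 and Ntrk3 of 0.826, and those of Sort1 and Bdnf of 0.791. Bdnf and its receptor gene Ntrk2 had 0.457, and Ntf3 and Ntrk2 had -0.02. Among 13092 protein-coding genes, those with a pattern most like Bdnf were Fam19a1 (0.947), Pter (0.934) and C1ql3 (0.934). For Ntf3 these were Gpr22 (0.823), Stmn4 (0.809) and Caml (0.806), and for Ntrk3 Slc7a14 (0.959), Snx19 (0.953) and Chl1 (0.952). For Ntrk2 they were Il6st (0.970), Tnfrsf1a (0.969) and Slc6a11 (0.969), the last of which encodes a GABA transporter of astrocytes. For Sort1 they were Sirpa (0.985), Chrm1 (0.984) and Sez6l (0.981). These correlations are descriptions over 8 groups of 5 libraries.

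In GENCODE M21 the longest 3´ UTR was 16600 bases in Ntrk3, 5617 in Ntrk2, 4268 in Sort1, 2855 in Bdnf, 1985 in Ngfr and 314 in Ntf3. Against 14985 genes with a median of 1156 bases, Ntrk3 stood at the 99.95th percentile, Ntrk2 at 96.96 and Sort1 at 93.28, while Ntf3 stood at 16.32.

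Of the other genes of the family, Ntf5 (neurotrophin-4/5) had at most 3 counts in any library and was not tested. Nradd, a p75 homologue, had at most 1.36 cpm, and was lower in RBP4 TRAP, with 5 counts in all, than in VGAT TRAP, with 40 counts in all (-2.99 ± 0.64 SE, edgeR adjusted p = 0.000572). In ST less TRAP its difference between the lines was 2.49 ± 0.81 SE, edgeR adjusted p = 0.0428. The sortilin relatives Sorcs1, Sorcs2, Sorcs3 and Sorl1, which encode sorting receptors, all rose in SNF against WCH in both lines, with log2 fold changes from 1.07 to 1.34 in the RBP4 line and from 1.24 to 1.45 in the VGAT line. Sorl1 stood at 306 ± 24.4 cpm in RBP4 TRAP against 130.2 ± 29.9 cpm in VGAT TRAP (1.23 ± 0.27 SE, edgeR adjusted p = 0.000594), and Sorcs1 had 79.3 ± 13.3 cpm and 34.3 ± 5.21 cpm (1.21 ± 0.22 SE, edgeR adjusted p = 9.06e-05). Sorcs2 and Sorcs3 did not pass between the lines in TRAP (0.22 ± 0.27 SE and 0.44 ± 0.23 SE). In ST less TRAP the lines differed in Sorl1 (-1.32 ± 0.37 SE, edgeR adjusted p = 0.0174), as in Sort1, and the value of Sorcs1 was -0.61 ± 0.31 SE, edgeR adjusted p = 0.233.

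**Figure D5:**
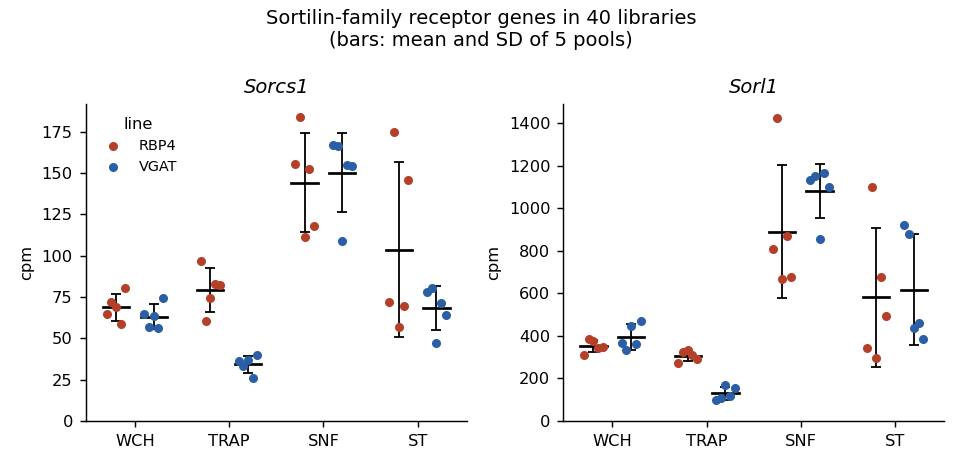
Levels in cpm (vertical axis, linear, from 0) of Sorcs1 and Sorl1 by fraction in the RBP4 (red) and VGAT (blue) lines. Each point is 1 pool and the bars give the mean and SD of 5 pools. Both genes are lower in VGAT TRAP than in RBP4 TRAP, Sorl1 at 130.2 against 306 cpm.

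A list of 79 further genes of the neurotrophin pathway, 76 of which were tested, put these changes beside those of the signalling machinery. In SNF against WCH 16 were higher and 33 lower in the RBP4 line, and 16 and 42 in the VGAT line, with medians of -0.38 and -0.51 against -0.50 and -0.52 over all genes. Of the genes of the kinase cascades 11 of 20 fell in RBP4 SNF and 17 of 20 in VGAT SNF, with 1 higher in each, and of the adaptors of Trk receptors 10 and 11 of 21 fell. Over all genes 36.1% and 45.2% fell. Pdpk1, a kinase that activates Akt, fell in VGAT SNF (-0.95 ± 0.11 SE, edgeR adjusted p = 3.11e-07).

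Genes for the processing and secretion of neurotrophins went the other way in SNF, where 6 of 11 tested were higher in the RBP4 line and 7 of 11 in the VGAT line, with 2 lower in each. Over all genes 13.4% and 19.3% were higher. Cpe, the carboxypeptidase that also sorts proBDNF, had 1.56 ± 0.24 SE in the RBP4 line (edgeR adjusted p = 0.000117). Vgf, a secreted peptide precursor that neurotrophins induce, rose in both (1.76 ± 0.30 SE, edgeR adjusted p = 0.000175, and 2.30 ± 0.18 SE, edgeR adjusted p = 4.32e-08), and was the only gene of the list called a local candidate in both lines, beside Shc3 in the RBP4 line and Shc4 in the VGAT line. Cadps, a factor of dense-core vesicle release, fell in RBP4 SNF (-1.31 ± 0.20 SE, edgeR adjusted p = 0.000112), and the Ras exchange factor Sos1 fell in both (-1.02 ± 0.17 SE, edgeR adjusted p = 0.000146, and -0.96 ± 0.10 SE, edgeR adjusted p = 2.4e-07).

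In TRAP against WCH 7 of the list were higher and 30 lower in the RBP4 line, and 10 and 43 in the VGAT line. In the 2 lines these were 48.7% and 69.7% of those tested, beside 39.9% and 62.8% of all genes. Bex3, which binds p75, rose in both (0.94 ± 0.25 SE, edgeR adjusted p = 0.00451, and 1.49 ± 0.15 SE, edgeR adjusted p = 3.61e-08), and so did Pik3r2, a PI3 kinase subunit, in the RBP4 line (1.24 ± 0.29 SE) and Hras in the VGAT line (1.31 ± 0.12 SE). Gab1, a docking protein downstream of Trk receptors, fell in both (-2.56 ± 0.32 SE, edgeR adjusted p = 3.64e-06, and -2.58 ± 0.19 SE, edgeR adjusted p = 1.39e-09), and the adaptor Frs2 fell in the RBP4 line (-1.22 ± 0.17 SE) and the transcription factor Creb1 in the VGAT line (-1.21 ± 0.10 SE).

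In ST against SNF 11 of the list were higher and 1 lower in the RBP4 line, 21 in all with the pool as a block, and 27 and 10 in the VGAT line. Without the block 15.8% and 48.7% of those tested were called in the 2 lines, beside 11.1% and 27.5% of all genes. Rapgef1, an exchange factor for Rap1, and the kinase Akt1 rose in both, Rapgef1 by 1.69 ± 0.26 SE and 1.75 ± 0.13 SE and Akt1 by 1.18 ± 0.17 SE and 1.36 ± 0.16 SE. Those that fell were Kidins220, a scaffold bound to Trk receptors and p75, in the RBP4 line (-0.60 ± 0.18 SE), and in the VGAT line 10 genes, among them Sorcs1 (-1.14 ± 0.15 SE) and the proprotein convertase gene Pcsk5 (-1.14 ± 0.20 SE). In ST against TRAP 29 were higher and 15 lower in the RBP4 line, and 37 and 19 in the VGAT line. In the 2 lines these were 57.9% and 73.7% of those tested, beside 55.1% and 71.5% of all genes. Gab1 and Rapgef1 were higher in ST by 2.78 and 2.33 in the RBP4 line and by 2.63 and 2.50 in the VGAT line. Bex3 was lower in ST in both (-1.96 and -2.71), Cadps in the RBP4 line (-1.29) and Hras in the VGAT line (-1.31).

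Between the TRAP groups 16 of the list were higher in the RBP4 line and 11 lower, 35.5% of those tested beside 28% of all genes. In WCH, SNF and ST edgeR called 0 of the list. At an unadjusted p under 0.05 the list had 1, 3 and 7 genes in these fractions, and DESeq2 called 0, 0 and 1. Genes for processing and secretion were 5 higher and 1 lower of 11, and Pcsk5 was among the higher (2.15 ± 0.27 SE, edgeR adjusted p = 2.76e-07). Rtn4r, the Nogo receptor that pairs with p75, was higher in RBP4 TRAP (2.48 ± 0.31 SE, edgeR adjusted p = 1.9e-07), and Akt1 was lower (-0.82 ± 0.17 SE, edgeR adjusted p = 0.000557). In ST less TRAP the lines differed in 9 genes of the list, 11.8% of those tested beside 10.8% of all genes, among them Akt1 (0.85 ± 0.25 SE), Rtn4r (-2.30 ± 0.41 SE) and Lingo1, a further Nogo receptor partner (-1.74 ± 0.36 SE). In TRAP less WCH they differed in 14, or 18.4% beside 12.6%, again with Rtn4r (2.58 ± 0.42 SE), Lingo1 (1.95 ± 0.36 SE) and Akt1 (-0.86 ± 0.25 SE), and with the docking protein gene Gab2 (-0.96 ± 0.29 SE). In ST less SNF and in SNF less WCH edgeR called 0 of the 6 genes, and 0 of all 17728 genes (0%), as different between the lines. At an unadjusted p under 0.05 the numbers over all genes were 109 higher and 393 lower in the first and 62 and 32 in the second, and DESeq2 called 0 in both.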

How the data were processed

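The RNA-seq of 40 libraries (2 lines, 4 fractions, 5 pools) was used as deposited. The authors used STAR 2.0.4b for alignment to an Ensembl assembly and featureCounts 1.4.5 to count, per gene, reads with 1 unambiguous position (versions per the submitters' notes), and strand use is not given in the sources used here. The deposited counts are whole numbers without normalization, and only they were tested. The deposited CPM and RPKM values, which the authors made from counts and library totals, served to check the counts (largest differences 4.07e-10 and 4.91e-11).

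Of 41388 genes, 390 (mitochondrial chromosome, rRNA and tRNA) were left out, as in the study. Library sizes were the remaining totals, with no further factor. Groups came from the labels. Fits in R 4.3.3 with edgeR 4.0.16 (glmQLFit, glmQLFTest) took genes that reached 0.5 cpm in 3 or more libraries. They used the 20 libraries of a line, 30 libraries (WCH, TRAP, ST) between lines, or all 40 where SNF of both lines enters. Alternatives were TMM, a likelihood ratio test, DESeq2 1.42.0, no genes left out, no filter, 1 cpm in 5 libraries, all 40 libraries in one fit, a replicate block, pools left out in turn, RBP4 ST replicate 4 left out, and, added after seeing the data, the pool within line as a block. Scripts were tested on simulated data. Symbols, positions and sequences are from GENCODE M21 (GRCm38).

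The 4 fractions of a number came from 1 pool, so numbers pair libraries within a line. Equal numbers had mean correlations of deviations from the group means between -0.009 and 0.390 in the RBP4 line and between 0.06 and 0.472 in the VGAT line. The members and lists were chosen with earlier results of these data known. The text names all 6 members, the other ligands and receptors, and of the pathway list for each comparison the 2 called genes of lowest p that rose and the 2 that fell. Some genes of these lists and 1 transcript junction are not reported here, and the lists were counted without them.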

Additional observations from a re-analysis of the deposited data

Results flagged for a closer look

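Of 48 groups of 5 libraries checked for a single library far from the rest, 2 had one, and chance gives such a library in about 1 in 20 groups. Bdnf had 190 cpm (189.673) in RBP4 ST replicate 2, where the gap to the next library was 0.769 of the range of the group. That library also held the most endothelial markers of RBP4 ST, 194 cpm against 5.04 to 33.0 cpm. It was highest of RBP4 ST in further sets too. These were the markers of excitatory neurons (1229 cpm, others 651 to 1196 cpm) and GABAergic neurons (1401 cpm, others 613 to 1097 cpm). Microglia (235 cpm, others 40.8 to 223 cpm) and mural and fibroblast markers (904 cpm, others 101 to 390 cpm) were likewise highest there. Ngfr had 1.79 cpm in VGAT TRAP replicate 1, with a gap of 0.868 of the range, from 28 counts.

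Effects that differed between the lines by the interaction test were Bdnf in ST less TRAP (-2.65, RBP4 less VGAT on the log2 scale) and in TRAP less WCH (3.31), Sort1 in the same steps (-0.97 and 1.14), and Ngfr in TRAP less WCH (-2.66). All 4 excitatory neuron markers moved with Bdnf and Sort1 in both differences, with medians of -2.85 and 3.14. Their part in these differences was not tested.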

How the results depend on the processing

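For the 6 genes 1452 values under the alternatives kept their direction and side of the threshold, 52 lost and 10 gained a call, and 47 turned sign. Bdnf and Sort1 between the TRAP groups, in ST less TRAP and in TRAP less WCH were called under every alternative, between 2.81 and 3.61, -3.30 and -2.36, and 3.09 and 3.92 for Bdnf, and between 1.08 and 1.25, -1.16 and -0.80, and 1.10 and 1.21 for Sort1. Low counts limit Ngfr, which had no value with the filter of 1 cpm in 5 libraries in the fits between the lines on WCH, TRAP and ST.

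DESeq2 called 5 members in RBP4 SNF against WCH, with Bdnf and Ngfr added. In ST against SNF, with no genes left out, 1 was called for RBP4 and 3 for VGAT, and leaving out each pool gave 1 to 3 for RBP4, with 1 without pool 1. The cause was not tested. Over all genes this RBP4 comparison had 1893 calls, 735 without pool 1, 1200 without pool 3, 804 without pool 4 and 3002 with all 40 libraries in one fit. RBP4 against VGAT in ST had 55, 140 with the likelihood ratio test, 138 with DESeq2, 195 without RBP4 ST replicate 4 and 7 to 160 without a pool (7 without VGAT pool 5, 160 without RBP4 pool 4). In WCH it had 2, and 4 with either of those tools, and 1 with no genes left out. In SNF it had 3, 5 with DESeq2 and 16 without RBP4 pool 2. In ST less SNF the likelihood ratio test called 4 genes. Bdnf in ST less TRAP was -2.53 without RBP4 ST replicate 4, and Sort1 -1.01, both still called.

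Signs turned with TMM for Sort1 in RBP4 TRAP against WCH (0.0741, DESeq2 0.0647), Ntf3 in VGAT TRAP against WCH (0.0905, DESeq2 0.0696), Ntrk3 in ST less TRAP (0.0192, DESeq2 0.0804), Ntrk3 in ST less SNF (0.014), Ntrk2 in SNF less WCH (0.0191, and 0.0128 with no genes left out) and Sort1 between the lines in WCH (-0.00201, and -0.0122 with no genes left out). With no genes left out Ngfr turned in VGAT ST against SNF (0.0188) and between the lines in SNF (0.0316). Without RBP4 ST replicate 4 Ntrk2 in ST less TRAP was -0.0901. None of these values passed the threshold in either direction.

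Leaving out each pool turned a sign for Ntf3 in VGAT ST against TRAP (-0.0322 to 0.173). Between the lines it did so in WCH for Ntrk2 (-0.0614 to 0.035), Ntrk3 (-0.028 to 0.0871) and Sort1 (-0.0244 to 0.0586), in SNF for Ngfr (-0.178 to 0.231), Ntrk3 (-0.289 to 0.0267), Sort1 (-0.174 to 0.0283) and Ntrk2 (-0.0892 to 0.0287), and in ST for Bdnf (-0.16 to 0.557, negative without RBP4 pool 2) and Ngfr (-0.718 to 0.183). In ST less TRAP the ranges were -0.0981 to 0.217 for Ntrk2 and -0.239 to 0.133 for Ntrk3, and in SNF less WCH -0.209 to 0.0424 for Sort1, -0.289 to 0.00245 for Bdnf and -0.124 to 0.0468 for Ntrk2.

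With the replicate block, Ntf3 in RBP4 ST against TRAP gained a call (-0.78), and Bdnf in VGAT SNF against WCH (0.75) and Ngfr in TRAP less WCH (-2.49) lost theirs. Between the lines equal numbers share only a number, with mean correlations of deviations of 0.187 in WCH, 0.144 in TRAP, 0.043 in ST and 0.217 in SNF, and 2, 3, 1 and 3 of 5 libraries correlated best with their own number. There the block turned Ngfr in SNF (0.0595). The pool within line as a block, chosen after seeing the data, gave -2.94 for Bdnf in ST less TRAP, 3.50 in TRAP less WCH, and -2.44 for Ngfr in TRAP less WCH, which lost its call. The block changed no other call of the 6 genes.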
